A study of Mus musculus with 8 samples.

Results

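Cadherins are surface proteins that hold cells of a kind together: the outer part of each binds the same cadherin on the next cell when calcium is present, and in the classical cadherins the inner tail binds catenins that tie the contact to actin. Tissues are known for the member they use, E-cadherin and Ksp-cadherin in epithelia, N-cadherin and OB-cadherin in mesenchyme and VE-cadherin in endothelium. EpCAM, a cell adhesion protein of simple epithelia, is not a cadherin, and p120-catenin, encoded by Ctnnd1, holds classical cadherins at the surface. In the testis, E-cadherin and EpCAM are also known from germ cells.

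Described here are 10 genes of 55487 in the count table, taken by their symbols: the cadherin genes Cdh1, Cdh2, Cdh3, Cdh4, Cdh5, Cdh6, Cdh11 and Cdh16, with Epcam and Ctnnd1. They were read in 8 RNA libraries of germ cells purified from testes of C57BL/6 mouse fetuses by fluorescence-activated sorting. There were 4 libraries labelled KO, whose animals were Rhox10-null and carried Oct4-eGFP+/+, a fluorescent reporter driven by sequences of the pluripotency gene Oct4. The 4 libraries labelled WT came from littermates with Oct4-eGFP+/+ alone, so that both groups carried the reporter. Rhox10 is an X-linked homeobox gene, and the fetal age is not given in the sources used here. The sources do not state that each library is its own animal, and p-values therefore rest on spread between samples that may be technical.

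Libraries held 16346977 to 20311338 counts. Rhox10 had 17 to 25 counts in the WT-labelled and 10 to 22 in the KO-labelled libraries (edgeR log2 fold change -0.28, adjusted p = 0.767), so the counts did not check the genotype labels. Markers of germ cells were present, but some genes of other testis cells were far more abundant per length of transcript. Ddx4, the germ-cell helicase gene, lay between 13.6 and 16.1 CPM per kb over the 8 libraries, where CPM are counts scaled to the library size, here divided by exon length. Cyp17a1, a steroid enzyme gene of Leydig cells, lay between 427 and 480, and the collagen gene Col1a1 between 427 and 459. The Sertoli cell genes Amh and Sox9 lay between 78.8 and 88.6 and between 15.7 and 17.6. Not all such genes exceeded Ddx4: Pecam1 of endothelium lay between 3.56 and 4.84, and Krt8 of simple epithelia between 5.69 and 13.1. These genes were picked as defining markers after their values were seen. Whether germ cells or other cells held the adhesion transcripts was not tested, and in RNA of many cells fewer cells of a type and less RNA per cell cannot be told apart.

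Of the 10 genes all passed the filter on low counts. With the KO label 4 were higher and none lower at an adjusted p under 0.05 in edgeR's quasi-likelihood test: Cdh1, Cdh16, Epcam and Cdh6. Over all 23190 genes tested, 5.14% passed in either direction, 2.35% higher and 2.80% lower (544 and 649 genes, or 426 and 836 with library totals alone in place of TMM). The groups did not overlap for the same 4 genes, against 9.44% of all genes tested. The median log2 fold change of the 10 genes was 0.06, beside 0.00198 over all genes tested. DESeq2 and limma voom also called none of the 10 lower, and 1 gene, Cdh3, missed the threshold with an unadjusted p under 0.05 (0.0333).

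**Figure D1:**
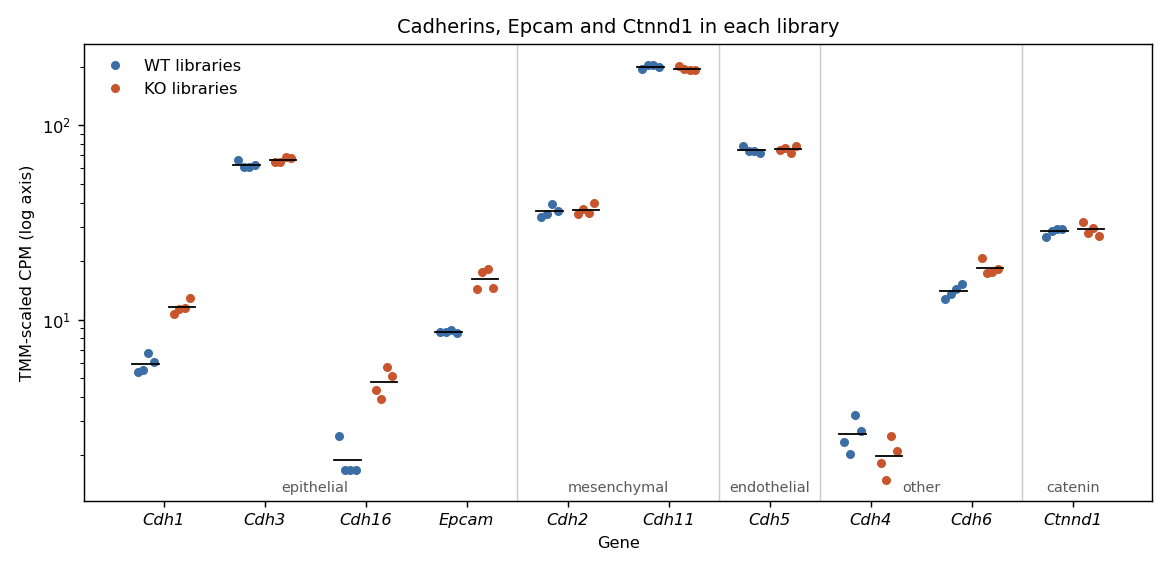
TMM-scaled CPM (log axis) of each gene in the 4 WT-labelled and 4 KO-labelled libraries, 1 point per library, with a black line at each group's mean. Cdh1, Cdh16, Epcam and Cdh6 separate the groups, and the points of Cdh2, Cdh3, Cdh4, Cdh5, Cdh11 and Ctnnd1 overlap.

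The stretch around the start of Epcam, from 250 bases before to 50 after it, is shown because Epcam had the smallest p of the 10 genes. That of Cdh6 is shown beside it as the other called gene with an entry. Both are from RefSeq (GRCm38.p6), from which entries of 3 of the 10 genes were read. The Epcam window is chr17:87635729-87636028 on the plus strand and the Cdh6 window chr15:13173626-13173925 on the minus strand, each printed 5′ to 3′. Capitals mark CAGGTG or its reverse complement CACCTG, the E-box letters known to be bound by repressors of Cdh1 such as the Snail and Zeb factors.
Epcam: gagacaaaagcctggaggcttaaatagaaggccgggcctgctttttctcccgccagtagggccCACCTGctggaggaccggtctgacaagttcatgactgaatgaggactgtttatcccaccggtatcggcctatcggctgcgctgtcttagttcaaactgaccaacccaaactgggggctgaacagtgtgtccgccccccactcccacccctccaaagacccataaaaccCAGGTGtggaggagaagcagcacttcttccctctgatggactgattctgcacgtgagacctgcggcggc
Cdh6: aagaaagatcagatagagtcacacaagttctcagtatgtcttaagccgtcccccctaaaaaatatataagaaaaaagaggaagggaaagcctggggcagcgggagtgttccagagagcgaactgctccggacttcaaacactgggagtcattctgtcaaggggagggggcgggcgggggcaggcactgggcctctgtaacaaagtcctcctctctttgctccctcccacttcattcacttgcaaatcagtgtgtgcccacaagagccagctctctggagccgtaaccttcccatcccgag

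The Epcam window held 2 matches, at bases 64 to 69 and 232 to 237 of the 300. The Cdh6 window held 0, as did both windows of Ctnnd1. Of all 32851 windows of this length 20.2% held at least 1 match and 2.88% at least 2. A match of letters is a description and not a site.

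Among the epithelial genes, 3 of 4 rose with the KO label. Cdh1 (ENSMUSG00000000303), which encodes E-cadherin, lies on chromosome 8 from 106603351 to 106670246 on the plus strand, in 16 blocks of exons that add up to 4574 bases (GRCm38, as are all positions). Its counts were 89, 111, 128 and 105 in WT replicates 1 to 4 and 175, 190, 218 and 251 in KO replicates 1 to 4. Scaled to the library, these were 5.36, 5.50, 6.74 and 6.07 CPM with the WT label and 10.7, 11.4, 11.4 and 12.9 CPM with the KO label. The lowest KO-labelled library stood above the highest WT-labelled one. Cdh1 was 1.96-fold higher (log2 fold change 0.97, standard error 0.11, edgeR adjusted p = 6.79e-14, n = 4 per group).

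Epcam (ENSMUSG00000045394), the gene of the epithelial cell adhesion molecule, lies on chromosome 17 from 87635979 to 87651129 on the plus strand, with 2195 exon bases. It had 8.67, 8.62, 8.84 and 8.56 CPM in WT replicates 1 to 4, from 144 to 174 counts. In KO replicates 1 to 4 it had 14.4, 17.6, 18.3 and 14.6 CPM, from 235 to 348 counts. The WT-labelled libraries lay close together, with an SD of 1.40% of their mean, and the KO-labelled ones spread more, with 12.5%. At 144 to 174 counts per library, counting error alone is expected to exceed 1.40%. Whether the groups differ in spread was not tested. KO replicates 2 and 3 were the highest. The rise was 1.87-fold (log2 fold change 0.90, standard error 0.09, edgeR adjusted p = 2.14e-16).

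Cdh16 (ENSMUSG00000031881) encodes Ksp-cadherin, known from the tubules of the kidney, whose short inner tail lacks the catenin-binding part of classical cadherins. It lies on chromosome 8 from 104601911 to 104624396 on the minus strand, with 3792 exon bases. Its counts were 42, 34, 32 and 29 in WT replicates 1 to 4 and 71, 65, 108 and 100 in KO replicates 1 to 4. In CPM these were 2.53, 1.69, 1.68 and 1.68 against 4.34, 3.88, 5.67 and 5.12. WT replicate 1 was the highest of its group, yet below every KO-labelled library. Cdh16 had the largest fold of the 10 genes, 2.54 (log2 fold change 1.34, standard error 0.18, edgeR adjusted p = 3.88e-10), on the fewest WT-labelled counts, 137 in all.

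Cdh3 (ENSMUSG00000061048), which encodes P-cadherin of basal epithelia and placenta, was the epithelial gene that did not pass. It lies beside Cdh1 on the same strand of chromosome 8, from 106510891 to 106557297, with 46.1 kb between them. In WT replicates 1 to 4 it had 65.9, 61.1, 61.3 and 62.6 CPM, and in KO replicates 1 to 4 it had 64.8, 65, 68.6 and 68.2 CPM. The groups overlapped. The log2 fold change was 0.09 (standard error 0.04, edgeR adjusted p = 0.261), and the 95% interval of the fold, 1.96 standard errors either side, was 1.01 to 1.13. An interval for this gene alone leaves out 1, while the p adjusted over all genes tested misses the threshold. Levels of Cdh3 stood well above those of Cdh1: per length it was at 14.3 ± 0.508 against 1.29 ± 0.137 CPM per kb with the WT label (SD, n = 4).

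**Figure D2:**
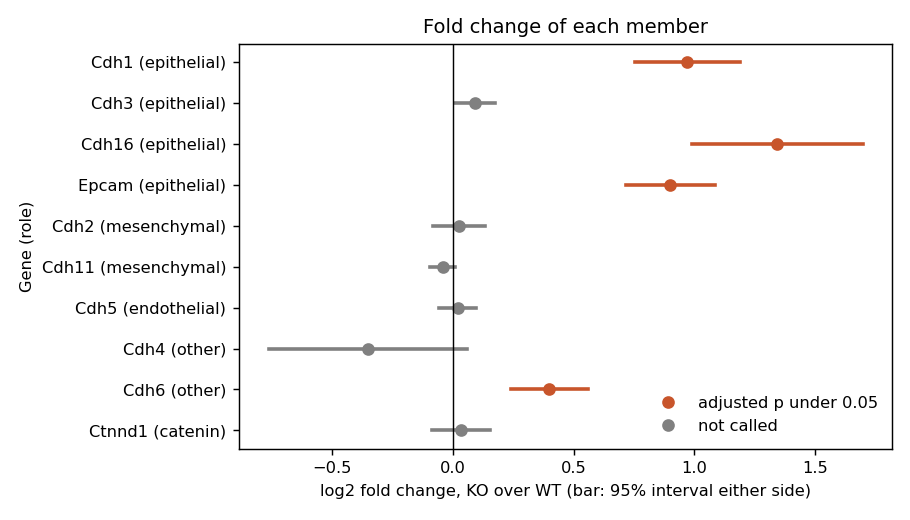
Log2 fold change of each gene, KO label over WT label, from edgeR, with bars of 1.96 standard errors either side; orange marks an adjusted p under 0.05. Cdh16 (1.34), Cdh1 (0.97), Epcam (0.90) and Cdh6 (0.40) lie above 0, and the bars of Cdh2, Cdh5, Cdh11, Cdh4 and Ctnnd1 cross 0.

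Neither mesenchymal cadherin passed the test. Cdh11 (ENSMUSG00000031673), the gene of OB-cadherin of mesenchyme and bone-forming cells, lies on the minus strand of chromosome 8 from 102632095 to 102785642. It was the most abundant of the 10 genes, with 195, 205, 204 and 199 CPM in WT replicates 1 to 4 and 201, 194, 192 and 192 CPM in KO replicates 1 to 4. The groups overlapped, and the log2 fold change was -0.04 (standard error 0.03, edgeR adjusted p = 0.449). With 14677 and 13933 counts per group its interval was narrow, 0.936 to 1.01-fold.

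Cdh2 (ENSMUSG00000024304), which encodes N-cadherin of neural and mesenchymal cells, known also from Sertoli cells and germ cells of the testis, lies on the minus strand of chromosome 18 from 16588877 to 16809246. Its levels were 33.9, 34.8, 39.5 and 36.2 CPM in WT replicates 1 to 4. With the KO label they were 34.9, 36.9, 35.4 and 39.6 CPM. Both groups covered nearly the same range (log2 fold change 0.02, standard error 0.05, edgeR adjusted p = 0.899), and the interval was 0.944 to 1.10-fold.

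The endothelial cadherin did not pass either. Cdh5 (ENSMUSG00000031871), the gene of VE-cadherin of vessel walls, lies on the plus strand of chromosome 8 from 104101625 to 104144511. It had 77.8, 73.4, 73.7 and 72.1 CPM in WT replicates 1 to 4 and 74.5, 76.4, 72.0 and 77.9 CPM in KO replicates 1 to 4. The ranges overlapped almost fully, with a log2 fold change of 0.02 (standard error 0.04, edgeR adjusted p = 0.89) and an interval of 0.960 to 1.09-fold. Of 16 other endothelial marker genes tested, 3 rose and 0 fell, with a median log2 fold change of 0.20. Log2 fold changes of 12 lay above 0, and those of Plvap (-0.27), Robo4 (-0.06), Esam (-0.04) and Eng (-0.0006) lay below. The risers were Kdr (0.22, adjusted p = 0.000132) and Flt1 (0.27, adjusted p = 0.000918), receptors of vascular growth factor, and Pecam1, an adhesion protein of endothelium (0.23, adjusted p = 0.0143). DESeq2 (adjusted p = 0.0556) and limma voom (0.0674) did not call Pecam1. Leaving out WT replicate 2 or 4 or KO replicate 1 or 3 also ended its call, with adjusted p of 0.0635, 0.0858, 0.0952 and 0.0898. The summed level of the endothelial list was 213 to 224 CPM in WT-labelled libraries and 243 to 248 in KO-labelled ones. Whether Cdh5 differed from these markers in its change was not tested.

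Of the remaining cadherin genes Cdh6 passed the test and Cdh4 did not. Cdh6 (ENSMUSG00000039385) encodes K-cadherin, known from the early kidney tubule, and lies on the minus strand of chromosome 15 from 13028701 to 13173675. It had 12.7, 13.6, 14.3 and 15.3 CPM in WT replicates 1 to 4 and 20.8, 17.3, 17.5 and 18.2 CPM in KO replicates 1 to 4. All KO-labelled libraries stood above all WT-labelled ones, and KO replicate 1 was the highest. The rise was 1.32-fold (log2 fold change 0.40, standard error 0.08, edgeR adjusted p = 0.000133). Cdh4 (ENSMUSG00000000305), which encodes R-cadherin of the retina and kidney, lies on the plus strand of chromosome 2 from 179442431 to 179899373. It was counted 39, 41, 61 and 46 times in WT replicates 1 to 4 and 30, 25, 48 and 41 times in KO replicates 1 to 4. The groups overlapped (log2 fold change -0.35, standard error 0.21, edgeR adjusted p = 0.430). The interval ran from 0.589 to 1.04-fold, so a fall of that size could not be told apart from no change.

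Ctnnd1 (ENSMUSG00000034101), the gene of p120-catenin, which binds the inner tail of classical cadherins near the membrane and slows their removal from the surface, lies on the minus strand of chromosome 2 from 84600071 to 84650765. It had 26.6, 28.4, 29.3 and 29.3 CPM in WT replicates 1 to 4 and 31.8, 27.8, 29.8 and 27.0 CPM in KO replicates 1 to 4. The ranges of the groups overlapped for the most part (log2 fold change 0.03, standard error 0.06, edgeR adjusted p = 0.876, interval 0.941 to 1.11-fold). Of its 7319 exon bases, 4482 are also exon bases of Gm28635 on the same strand, and Gm28635 was listed at 0 in all 8 libraries. How reads in the shared bases were counted is not stated, so the level of Ctnnd1 relative to other genes is uncertain. No other of the 10 genes shared exon bases with another gene in the table.

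Per length, the order of the levels was led by genes of mesenchyme and endothelium. With the WT label Cdh11 was at 22.5 ± 0.50, Cdh5 at 17.7 ± 0.580 and Cdh3 at 14.3 ± 0.508 CPM per kb (SD, n = 4), each apart from the next. Cdh2 followed at 4.48 ± 0.307, above Epcam at 3.95 ± 0.0551 and Ctnnd1 at 3.88 ± 0.173, which overlapped each other. Then came Cdh6 at 1.55 ± 0.124 and Cdh1 at 1.29 ± 0.137, which overlapped, and last Cdh16 at 0.499 ± 0.112 and Cdh4 at 0.353 ± 0.0692, which overlapped too. With the KO label the first 3 kept their order, at 21.9, 17.9 and 15.2 CPM per kb. Epcam came next at 7.38 ± 0.920, above Cdh2 at 4.55 ± 0.263 in every library. Cdh1 at 2.53 ± 0.199 stood above Cdh6 at 2.05 ± 0.182, and Cdh16 at 1.25 ± 0.210 above Cdh4 at 0.274 ± 0.0597, without overlap. If reads of Ctnnd1 came only from the 2837 bases it does not share, its level would be 10.01 ± 0.447 and 10.3 ± 0.756 CPM per kb.

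The summed level of the 8 cadherin genes was 62.7 ± 0.634 CPM per kb in WT-labelled libraries and 65.6 ± 0.973 in KO-labelled ones (SD, n = 4). Cdh11 made up 34.7 to 37.0% of it in the WT-labelled libraries and 32.2 to 34.5% in the KO-labelled ones. Cdh1 made up 1.85 to 2.33% and 3.58 to 4.20%. Cdh16 took 0.703 to 1.05% and 1.58 to 2.30%, and Cdh6 took 2.23 to 2.74% and 2.95 to 3.53%. The 3 epithelial cadherins together took 25.1 to 26.7% and 27.9 to 30.2%, most of it Cdh3. These shares are a description and were not tested.

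**Figure D3:**
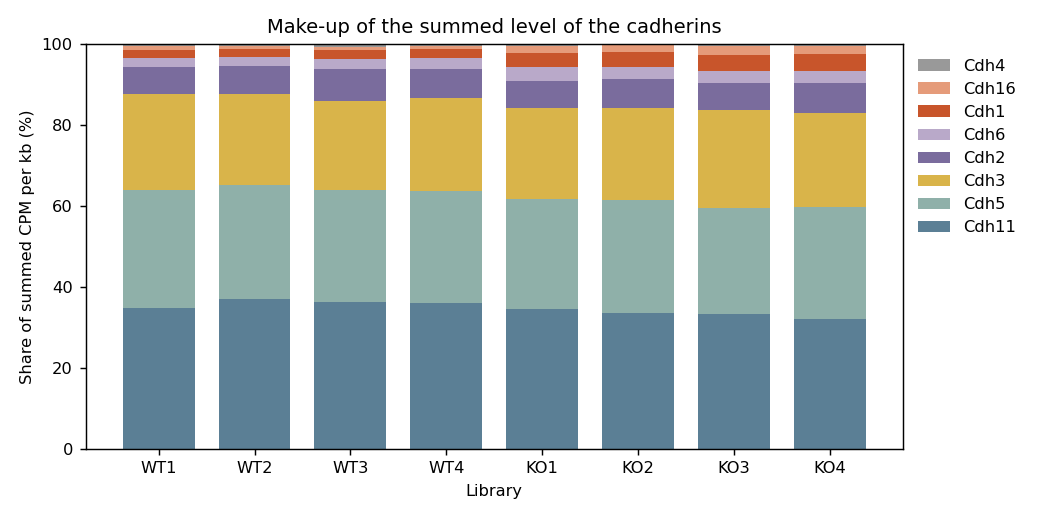
Share of each cadherin gene (%) in the summed CPM per kb of the 8 cadherin genes, 1 bar per library. Cdh11, Cdh5 and Cdh3 fill most of every bar, and the bands of Cdh1 and Cdh16 are wider in the 4 KO-labelled libraries.

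Whether the other genes moved by another amount than Cdh1 was tested on the log2 ratio of Cdh1 to each within a library, which does not depend on the scaling between libraries. Exact two-sided permutation tests over the samples were adjusted over the 9 ratios, and the smallest p that 4 against 4 allows is 0.0286. The ratio of Cdh1 to Cdh2 was -2.59 ± 0.0543 in WT-labelled and -1.65 ± 0.0426 in KO-labelled libraries (SD, n = 4), a difference of 0.94, with an exact p = 0.0286 and an adjusted p = 0.0367. In this ratio the libraries of a group lay closer together than in any other of the 9. At 89 to 251 counts of Cdh1 per library, counting error alone is expected to give a wider spread. The closeness was not tested. Differences were 1.002 against Cdh11, 0.94 against Cdh5 and 0.93 against Ctnnd1. Against the neighbouring Cdh3 the difference was 0.87, and against Cdh4 it was 1.31. Each of these had the same exact p of 0.0286 and the adjusted p of 0.0367, and its groups did not overlap.

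Against Cdh6, which itself rose, the ratio of Cdh1 went up by 0.56 (exact p = 0.0286, adjusted p = 0.0367). Cdh1 therefore rose by more than Cdh6. The ratio of Cdh1 to Epcam was -0.55 ± 0.137 and -0.47 ± 0.225, a difference of 0.08 (exact p = 0.571, adjusted p = 0.571). The ratio to Cdh16 was 1.60 ± 0.387 and 1.28 ± 0.214, a difference of -0.33 (exact p = 0.171, adjusted p = 0.193). In both ratios the groups overlapped, which does not show that these genes changed alike.

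**Figure D4:**
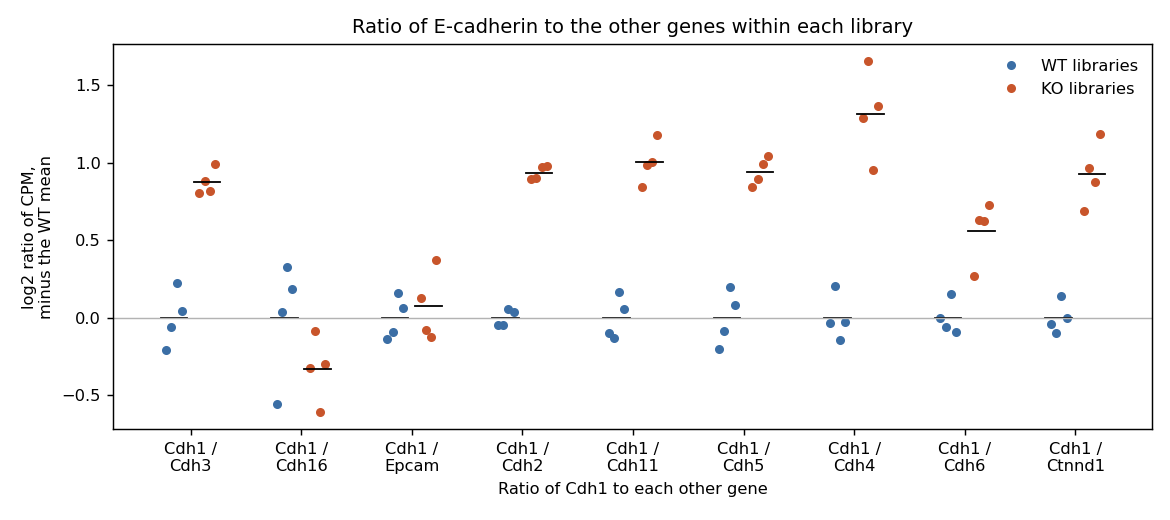
Log2 ratio of Cdh1 to each other gene in each library, from TMM-scaled CPM with a prior count of 2, less the mean of the WT-labelled libraries, with a black line at each group's mean. The KO-labelled points lie above all WT-labelled points except for Epcam and Cdh16.

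The genes whose profile over the 8 libraries was most like that of Cdh1 were sought by the root mean square distance of centred log2 CPM, among genes whose log2 CPM averaged 1 or more, leaving out the 10 genes, predicted loci and small RNA genes. They were Krt8-ps at 0.09, Krt8, a keratin gene of simple epithelia, at 0.11 and Prom1, the gene of the membrane protein prominin-1, at 0.12. Krt8-ps is a pseudogene of Krt8 and may share its reads. Nearest to Epcam were Prom1 at 0.10, H2-Ab1, a class II histocompatibility gene, at 0.15 and Mecom, a zinc finger factor gene, at 0.15. For comparison, Cdh1 and Epcam lay 0.17 apart, and Cdh1 and Cdh2 0.47. Krt8 was at 12.6 ± 1.21 CPM in WT-labelled and 23.2 ± 1.97 in KO-labelled libraries (SD, n = 4). Prom1 was at 4.78 ± 0.159 and 8.77 ± 0.952 CPM.

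Counts of called catenins and other partners of cadherins are read against the 5.14% of all genes tested that passed. Of 9 catenin genes and relatives of p120, 1 rose and none fell in edgeR. That was Jup, the gene of plakoglobin, which serves adherens junctions and desmosomes, by 0.17 on the log2 scale (adjusted p = 0.0438). Neither DESeq2 (adjusted p = 0.174) nor limma voom (0.144) called it, and leaving out any of 4 libraries ended the call. The adjusted p was then 0.258 for WT replicate 2, 0.135 for WT replicate 4, 0.264 for KO replicate 2 and 0.240 for KO replicate 4. Of 13 genes that link junctions to actin, 2 rose: Vcl, which encodes vinculin, by 0.13 (adjusted p = 0.00279), and Actn1, which encodes alpha-actinin-1, by 0.13 (adjusted p = 0.00340; 0.0851 without KO replicate 3). Of 5 nectin genes, whose products start cell contacts, none passed in edgeR, DESeq2 or limma voom, and 1 had an unadjusted p under 0.05. Nectin4 had the smallest p (log2 fold change 0.66, adjusted p = 0.210), then Nectin3 (0.10, adjusted p = 0.396). The medians of the lists were 0.02, 0.03 and 0.01.

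Of 32 further cadherin genes 25 were tested, and 5 rose and 1 fell. Their median log2 fold change was -0.02, and 11 of the 25 lay above 0. The risers with the smallest p were large atypical cadherins. Celsr2, a cadherin of planar polarity, rose by 0.51 (adjusted p = 2.23e-11) and Celsr1 by 0.19 (adjusted p = 0.000306). Dchs2, of the dachsous family, rose by 0.81 (adjusted p = 2.13e-05), and Fat2, of the Fat family, by 0.72 (adjusted p = 0.00379). Fat1 rose by 0.06 (adjusted p = 0.0330) and Celsr3 fell by 0.82 (adjusted p = 0.0318), both named after their values were seen. The call of Fat1 was lost under 9 of the 17 alternatives, 6 of which left out a library (WT replicates 1, 2 and 4 and KO replicates 2, 3 and 4), with adjusted p up to 0.214. That of Celsr3 was lost under 9 as well, 5 of which left out a library (WT replicates 2 and 3 and KO replicates 2, 3 and 4), with adjusted p up to 0.282. Of 14 desmosome genes 6 were tested. Dsp, the gene of desmoplakin that ties desmosomes to keratin, rose by 0.11 (adjusted p = 0.000856) and the others did not pass.

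Of 15 tested genes listed as partners of EpCAM or for their part in its cleavage, 1 rose. That was St14, the gene of matriptase, a membrane protease that cuts EpCAM (0.68, adjusted p = 0.00305, and 0.0724 without KO replicate 3). Of 9 tested repressors of E-cadherin, most of which are known to bind the E-box letters shown above, 1 rose and none fell. It was Tcf4, a factor of the helix-loop-helix family, by 0.09 (adjusted p = 0.0315), and the median of the list was -0.04. Its call was lost under 11 of the 17 alternatives, 6 of which left out a library (WT replicates 1, 3 and 4 and KO replicates 1, 2 and 3), with adjusted p up to 0.134. Activators of epithelial genes rose in 5 of 12 tested, with none down and a median of 0.34. Ehf and Elf3, ETS factor genes of epithelia, rose by 1.55 and 0.73 (adjusted p = 4.31e-13 and 0.000326), and Esrp1, an epithelial splicing factor gene, by 0.53 (adjusted p = 0.00285).

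**Figure D5:**
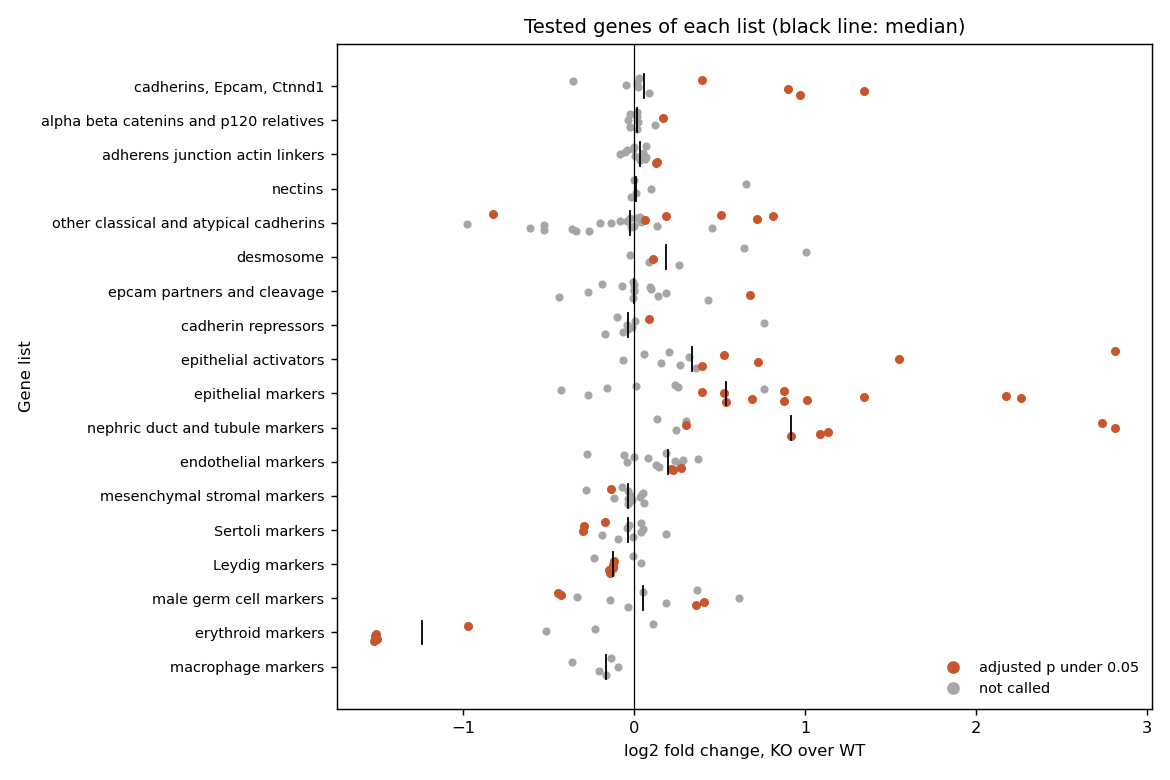
Log2 fold change, KO label over WT label, of every tested gene of each list, 1 point per gene, orange at an adjusted p under 0.05, with a black line at the list's median. The medians of epithelial markers (0.54) and of nephric duct and tubule markers (0.92) lie to the right of 0, and that of erythroid markers (-1.24) to the left.

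Most, but not all, tested markers of epithelial cells pointed the same way as Cdh1, Cdh16 and Epcam. Of 19 epithelial markers 17 were tested, 10 rose and none fell, and 7 did not pass. Log2 fold changes of 14 lay above 0. Those of Mal (-0.43, adjusted p = 0.115), Spint1 (-0.27, adjusted p = 0.559) and Rab25 (-0.16, adjusted p = 0.842) lay below. Their summed level was 64.9 to 65.7 CPM in WT-labelled libraries and 98.4 to 103.6 in KO-labelled ones. Krt18, a partner keratin of Krt8, rose by 1.01 (adjusted p = 3.17e-18), and Cldn6, a tight junction gene, by 2.17 (adjusted p = 1.58e-06). Of 14 nephric duct and tubule markers 9 were tested, and 6 rose and none fell. The summed level was 39.4 to 44.8 CPM with the WT label and 61.4 to 71.9 with the KO label. Pkhd1, the fibrocystin gene, rose by 2.73 (adjusted p = 2.08e-41), Pax8 by 1.09 (adjusted p = 2.86e-14) and Lhx1 by 1.13 (adjusted p = 5.71e-05), the last 2 encoding transcription factors of the nephric duct. Umod, a defining gene of the mature kidney tubule, was at 0 counts in all 8 libraries. The part of such cells in the rise of the 4 genes was not tested.

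In the lists of stromal, Sertoli, Leydig, erythroid and macrophage markers no gene rose. Of 14 stromal genes 1 fell (Vim, an intermediate filament gene, -0.13, adjusted p = 4.28e-06) and none rose, and the summed level was 8639 to 8746 CPM in WT-labelled libraries and 8367 to 8610 in KO-labelled ones. Of 12 Sertoli genes 3 fell, the smallest p being that of Aard (-0.30, adjusted p = 2.16e-05), with a sum of 782 to 808 and 760 to 776 CPM. Of 8 Leydig genes 5 fell, among them Cyp17a1 (-0.14, adjusted p = 7.51e-12), with a sum of 3132 to 3163 and 2848 to 2891 CPM. Of 8 erythroid genes 5 fell, among them Hba-a1 (-1.52, adjusted p = 2.62e-85), with a sum of 225 to 239 and 94.0 to 98.7 CPM. None of 5 tested macrophage genes passed in edgeR, DESeq2 or limma voom, 1 had an unadjusted p under 0.05, and the sum of all 10 in the list was 26.1 to 27.6 and 21.6 to 23.7 CPM.

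Of 12 germ-cell markers 11 were tested, 2 rose and 2 fell. Dazl and Dppa3, genes of early germ cells, rose by 0.37 and 0.41 (adjusted p = 6.24e-05 and 0.00117), and the piRNA genes Piwil2 and Tdrd1 fell by 0.45 and 0.43 (adjusted p = 1.21e-09 and 3.27e-08). The summed level of the list was 204 to 224 CPM in WT-labelled libraries and 198 to 212 in KO-labelled ones, so the groups overlapped.

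Of the 10 genes 5 lie on chromosome 8, in the order Cdh11, Cdh5, Cdh16, Cdh3 and Cdh1 along the coordinates. Between Cdh3 and Cdh1 lie 2 genes, 1 of them protein-coding, and between Cdh5 and Cdh16 lie 27. The called genes Cdh16 and Cdh1 are not neighbours in this row, since Cdh3, which did not pass, lies between them. Epcam and Cdh6 lie on chromosomes 17 and 15.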

How the data were processed

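Per the labels' protocols, libraries came from total RNA and a stranded pico-input kit (SMARTer). The authors deposited raw counts per gene with exon positions. The submitters' processing notes name STAR 2.5.2b, Subread, featureCounts, DESeq2 and GRCm38, with no roles or settings; use of strand is not stated. Of 55487 IDs, 55141 matched a symbol in a list of gene names. Of the 55227 found in the GENCODE M21 annotation, 99.35% had identical positions.

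Counts were tested in R 4.3.3 with edgeR 4.0.16: filterByExpr, TMM scaling, robust quasi-likelihood test, two-sided, Benjamini-Hochberg adjusted over the 23190 genes tested. A gene was called at an adjusted p under 0.05. CPM are TMM-scaled, and ratios used a prior count of 2. Standard errors are the fold change over the root of F. Alternatives included DESeq2 1.42.0 and limma 3.58.1 (voom). On simulated counts with 22870 genes tested the test called 49 of 50 genes changed 2-fold and 39 of 50 changed 1.5-fold. It called 28 of 50 changed 1.25-fold, and 11 unchanged genes. Every simulated gene had the same spread between libraries beyond counting error (3.86%), so genes that spread more were not covered.

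Named were the 10 genes, up to 4 called genes per list with the smallest p (or 2 uncalled), and the 3 genes nearest to Cdh1 and to Epcam; most falling globin genes and a few others taken by this rule are shown only in their list's count. A further gene taken by the rule is not reported here. The genes and the 17 lists were chosen with earlier results of these data known. Adjusted p-values are edgeR's unless another test is named. Intervals cover counting error and spread between libraries.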

Additional observations from a re-analysis of the deposited data

Results flagged for a closer look

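The Cdh16 level of WT replicate 1, 2.53 CPM from 42 counts, stood far from the other libraries with the WT label, which lay between 1.68 and 1.69 CPM. Its gap to the next library took up nearly all of the range of the group. Of the 20 groups looked at (10 genes, each label) it was the 1 found, and chance gives about 1 in 20. Without that library Cdh16 had a log2 fold change of 1.50 and was called.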

How the results depend on the processing

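Under all 17 alternatives Cdh1, Cdh16, Epcam and Cdh6 were called higher and none of the other 6 genes was called, so the counts of 4 higher and 0 lower held, also with each library left out. Their log2 fold changes ranged from 0.91 to 1.04 (Cdh1), 1.25 to 1.50 (Cdh16), 0.83 to 0.95 (Epcam) and 0.34 to 0.44 (Cdh6), and their largest adjusted p were 1.87e-06, 6.09e-05, 1.60e-06 and 0.00546. The count of all changed genes, 1193, became 785 with the DESeq2 test and 898 to 1040 without 1 library. The count lower, 649, became 412 with DESeq2 and 424 with limma voom. With library totals alone 426 were higher and 836 lower. Same-numbered libraries did not deviate together (correlations -0.01 to 0.02). With the replicate number as a block 1249 genes were called, 4 of the 10 among them. The block's sign-flip test of ratios cannot go below 0.125, nor the permutation test without 1 library below 0.0571, so these ratios were compared as values. The difference for Cdh1 against Cdh2 ranged from 0.92 to 0.95 and that against Epcam from -0.02 to 0.14. Of 51 list genes called, 42 were called under all 17 alternatives and 9 lost the call without at least 1 library; beside those named above these were Grhl2 and Sox8. Low counts limit Cdh4 and Cdh16.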
